A study of Mus musculus with 2 samples.

Results

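CC chemokines are small secreted proteins named for a pair of adjacent cysteines, and the 8 genes described here are Ccl2, Ccl3, Ccl4, Ccl5, Ccl6, Ccl7, Ccl9 and Ccl12. They were taken by symbol from the gene table, which lists 27998 genes. Each symbol had exactly 1 row in both libraries. All 8 were among the 9066 genes with 20 or more unique molecular identifiers (UMIs, each 1 captured transcript) over both libraries.

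The cells were tdTomato+ cells sorted from mouse spinal cord, in 2 libraries with 1 library per condition. Both came from C57BL/6J mice carrying Cx3cr1-CreER::Rosa26-tdTomato, in which a tamoxifen-activated Cre under the fractalkine receptor gene labels microglia and other Cx3cr1-expressing cells. All mice received 2 injections of 1 mg 4-hydroxy-tamoxifen at postnatal week 4, and the cords were taken 4 weeks after tamoxifen. The control library is uninjured and age-matched. The injured library was taken on day 5 after lysolecithin, which dissolves myelin and so demyelinates the cord locally. The number of animals in each library was not given in the sources used here.

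Chemokines bind G-protein-coupled receptors and steer migrating leukocytes along gradients. Ccl2, Ccl7 and Ccl12 act mainly through Ccr2, carried by inflammatory monocytes. Ccl3, Ccl4 and Ccl5 attract T cells, monocytes and other leukocytes, and Ccl6 and Ccl9 are ligands of Ccr1. Microglia are a known source of several of them, and enzymatic dissociation of brain tissue is known to induce Ccl3 and Ccl4 along with early response genes.

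After the filters, the uninjured library held 695 cells with 2093084 UMIs and the injured library 577 cells with 3095511. Cells had a median of 3003 UMIs in the first and 4396 in the second. The libraries shared 0 cell barcodes. With 1 library per condition no test was possible, so each interval below is an exact 95% interval that covers counting error alone. All 11 microglial markers were seen in both libraries. Their summed level, as counts per 1000000 UMIs (CPM), was 26859 without injury and 16364 after it. P2ry12, a purinergic receptor of surveying microglia, was seen in 95.5% and 61.6% of cells in that order, at 1500 UMIs per cell. Of 8 monocyte markers, 5 were seen without injury, at 13.4 CPM in sum, and 6 after it, at 191 CPM. Fn1, fibronectin, gave 522 of the 590 injured UMIs of that list, and Ly6c2 was at 0 in both libraries. Border macrophage markers stood at 149 and 194 CPM (9 and 8 of 9 seen). Neutrophil markers stood at 203 and 84.3 CPM (2 and 4 of 8 seen), with Ly6g, Camp, Ngp and Retnlg at 0 in both. S100a8 and S100a9 were at 0 without injury and were seen after it. The part of other cell types in the values below was not tested. The libraries also differed in sex-linked transcripts: 235 uninjured cells held Y-linked UMIs alone and 6 held Xist UMIs alone, against 147 and 213 injured cells.

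The 8 genes lie on chromosome 11 in 2 groups (GRCm38, GENCODE annotation, all protein-coding). Ccl2 (82035571 to 82037453), Ccl7 and Ccl12 follow each other on the plus strand, with 8.26 kb between Ccl2 and Ccl7. The second group runs from Ccl5 through Ccl9 and Ccl6 to Ccl3 (83647844 to 83649355) and Ccl4 (83662584 to 83664683). Ccl9 and Ccl6 are 9.25 kb apart, and Ccl3 and Ccl4, on opposite strands, 13.2 kb apart. The promoter table from RefSeq (GRCm38.p6) held 4 of the 8 genes. The 250 bases before the start are shown for Ccl12 and Ccl3, which followed different genes from cell to cell, and for Ccl9, the gene with a lower level after injury. For Ccl3 the window stops at 83649379, short of the start at 83649355 given above, and the bases between were not searched. Capitals mark matches to the patterns searched for a TATA box, AP-1 or kappa-B, which are given below.
Ccl12 promoter, chr11:82101595-82101844, plus strand: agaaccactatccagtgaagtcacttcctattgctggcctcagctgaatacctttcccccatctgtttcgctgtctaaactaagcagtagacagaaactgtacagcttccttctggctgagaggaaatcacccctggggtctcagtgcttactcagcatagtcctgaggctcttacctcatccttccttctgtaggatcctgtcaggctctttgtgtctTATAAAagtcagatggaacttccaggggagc
Ccl3 promoter, chr11:83649379-83649628, minus strand: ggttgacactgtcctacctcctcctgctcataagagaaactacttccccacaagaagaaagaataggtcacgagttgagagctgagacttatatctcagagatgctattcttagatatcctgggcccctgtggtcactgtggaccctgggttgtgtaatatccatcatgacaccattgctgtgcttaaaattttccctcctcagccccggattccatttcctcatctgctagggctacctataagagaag
Ccl9 promoter, chr11:83578637-83578886, minus strand: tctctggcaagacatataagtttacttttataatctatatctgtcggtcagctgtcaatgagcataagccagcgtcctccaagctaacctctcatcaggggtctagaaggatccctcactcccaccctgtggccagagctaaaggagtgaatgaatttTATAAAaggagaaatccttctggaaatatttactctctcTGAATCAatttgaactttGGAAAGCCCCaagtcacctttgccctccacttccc

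The motifs searched were the TATA box TATAAA on the sense strand and, on both strands, AP-1 as TGANTCA, the kappa-B consensus, the interferon-stimulated response element as 2 GAAA blocks spaced by 2 bases, and C/EBP as TTGCNNAA. In Ccl12 the TATA box lay 31 to 26 bases before the start, and no other motif matched. Ccl9 held TATAAA 92 to 87, TGAATCA 53 to 47 and an antisense kappa-B match 35 to 26 bases before its start. TGAATCA matched only the loose AP-1 pattern, in which N is any base. The Ccl3 and Ccl6 windows held no match. No marked motif overlapped another. Of 32851 promoters of the same length, 7.59% held the TATA box, 6.75% the loose AP-1 pattern, 3.90% kappa-B, 2.98% the interferon element and 9.56% C/EBP. These matches describe letters in these windows and no binding was measured.

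Ccl4 and Ccl3 were the most abundant of the 8 in both libraries, and Ccl5 and Ccl7 differed most between them. Counting of UMIs at the 3′ end takes each molecule once whatever its length, so CPM was ordered between genes without a length correction. How reads of similar paralogs were assigned is not given, and the intervals do not cover it, so the order of close paralogs is less sure. In the uninjured library the order was Ccl4, Ccl3, Ccl2, Ccl12, Ccl9, Ccl6, Ccl5 and Ccl7, and only the intervals of the neighbours Ccl5 and Ccl7 overlapped. In the injured library it was Ccl4, Ccl3, Ccl2, Ccl12, Ccl5, Ccl6, Ccl9 and Ccl7, with no overlap between neighbours. Together the 8 genes gave 0.638% of all uninjured UMIs and 1.06% of all injured UMIs. Ccl4 alone was 49.4% and 43.6% of that family total.

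After injury 4 of the 8 genes stood at least 2-fold above the uninjured level, against 7.22% of all measured genes. None of the 8 was at least 2-fold lower, against 11.5% of all measured genes. The median log2 ratio of injured over uninjured was 0.90 over the 8 genes and -0.15 over all measured genes. Scaling by edgeR's TMM or by DESeq2 size factors added 0.14 or 0.15 to each log2 ratio, and the same 4 genes stayed at 2-fold or more. Over all measured genes, 655 were higher and 1044 lower by 2-fold or more, and the split became 796 to 786 with TMM and 810 to 752 with DESeq2 size factors.

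**Figure D1:**
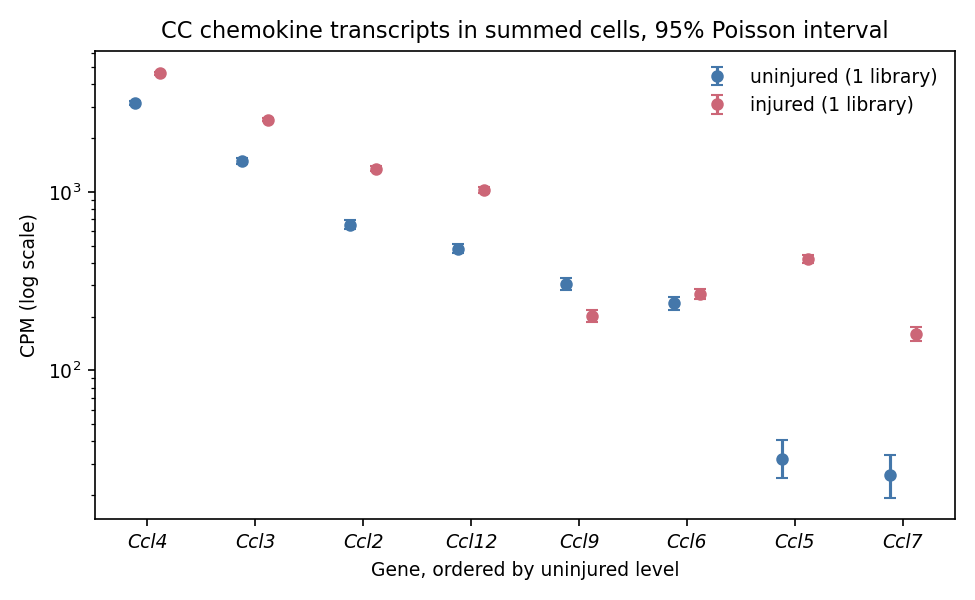
CPM of each gene in the summed cells of the uninjured and the injured library on a log scale, with exact 95% Poisson intervals as bars. Ccl5 went from 32.0 to 422 CPM and Ccl7 from 25.8 to 159.9 CPM, Ccl9 was the 1 gene lower in the injured library, and Ccl4 stood highest in both.

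Among Ccl3, Ccl4 and Ccl5, Ccl4 had 6595 uninjured UMIs (3151 CPM, interval 3075 to 3228) and 14271 injured UMIs (4610 CPM, 4535 to 4686). Values are given in this order from here on. Its log2 ratio was 0.55 (0.51 to 0.59), and it ranked 32nd and 24th of all genes by UMIs. Ccl3, the paralog beside it, had 3117 UMIs (1489 CPM) and 7841 UMIs (2533 CPM), a log2 ratio of 0.77 (0.71 to 0.83). Both were therefore abundant already without injury, and each was less than 2-fold higher after it. Ccl5, known also as RANTES, had 67 UMIs (32.0 CPM, 24.8 to 40.7) and 1306 UMIs (422 CPM, 399 to 445). Its log2 ratio of 3.72 (3.37 to 4.10) was the largest of the 8.

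T and NK cells, known makers of Ccl5, could be read from 6 markers: 0 were seen without injury and 1 after it, with 1 UMI. Cd3d, Cd3e and Cd3g were at 0 in both.

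Among the Ccr2 ligands, Ccl2, the main monocyte attractant, had 1372 UMIs (655 CPM) and 4171 UMIs (1347 CPM), a log2 ratio of 1.04 (0.95 to 1.13). Ccl12, its mouse paralog, had 1006 UMIs (481 CPM) and 3175 UMIs (1026 CPM), a log2 ratio of 1.09 (0.99 to 1.20). Ccl7 had 54 UMIs (25.8 CPM, 19.4 to 33.7) and 495 UMIs (159.9 CPM, 146 to 175), a log2 ratio of 2.63 (2.22 to 3.06). The calls of Ccl2 and Ccl12 stood close to the 2-fold line. The log2 ratio of Ccl2 was 0.93 as the mean of each cell's own CPM and 0.97 with every cell thinned to 1500 UMIs. With at most 5% mitochondrial UMIs allowed it fell just under the line, at 0.9998.

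Ccl6 had the ratio nearest to 1 of all 8 genes, and Ccl9 was the 1 member lower after injury. Ccl6 had 496 UMIs (237 CPM) and 829 UMIs (268 CPM), a log2 ratio of 0.18 (0.01 to 0.34). Ccl9 had 639 UMIs (305 CPM) and 627 UMIs (203 CPM), a log2 ratio of -0.59 (-0.75 to -0.43). The size of the Ccl9 difference depended on how cells were weighted: it was -0.30 as the mean of per-cell CPM and -0.16 with every cell thinned to 1500 UMIs.

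Some of these values differed between cells grouped by their sex-linked transcripts. Within the injured library, Ccl4 was at 5816 CPM in cells with Xist UMIs alone and 4144 CPM in cells with Y-linked UMIs alone. Ccl7 was at 194 and 86.8 CPM in that order, while Ccl5 was at 411 and 569 CPM. The 200 cells with neither kind held Ccl4 at 3345 CPM, below both groups. The 17 cells with both kinds held Ccl7 at 706 CPM, above both groups. The 10 highest cells held 58.8% of injured Ccl7 UMIs and 63.9% of injured Ccl5 UMIs, so a few cells weigh heavily in the values of these genes. With the comparison kept to cells whose sex-linked UMIs were Y-linked alone, the log2 ratio was 0.27 for Ccl4, 0.30 for Ccl3, 0.96 for Ccl2, under 2-fold, 1.96 for Ccl7, -0.82 for Ccl9 and -0.12 for Ccl6, whose direction turned. The part of sex in the differences between libraries was not tested.

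Cells differed far more than even sampling of the mean would give. In the uninjured library Ccl4 had a median of 2 UMIs per cell, a 90th percentile of 26 and a maximum of 193. After injury these were 11, 62 and 507. Of its UMIs, 50% lay in the top 55 of 695 uninjured and the top 61 of 577 injured cells. Ccl12 went the other way: 50% of its UMIs lay in 63 uninjured but only 28 injured cells. Ccl5 and Ccl7 were the most concentrated in the injured library, with 50% of the UMIs of each in 7 cells. The highest injured cell held 174 UMIs of Ccl5, while a Ccl5 UMI was seen in 23.1% of injured cells.

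To compare cells at 1 depth, each was thinned at random to 1500 UMIs, which left 604 uninjured and 567 injured cells and left out 91 and 10. Ccl4 was then seen in 61.8% of uninjured and 77.4% of injured cells (unthinned 70.5% and 89.6%). Ccl3 was seen in 51.8% and 70.2% (unthinned 62.4% and 84.6%), and Ccl2 in 41.9% and 55.6% (54.0% and 74.0%). Ccl12 was seen in 34.3% and 46.4% (49.4% and 64.6%), Ccl5 in 2.32% and 13.9% (3.60% and 23.1%), and Ccl7 in 1.66% and 8.29% (3.31% and 17.2%). For these 6 genes the thinned intervals of the 2 libraries did not overlap. Ccl6 at 25.7% and 25.6% and Ccl9 at 27.2% and 25.9% had overlapping intervals (unthinned 38.8% and 49.2%, and 42.3% and 49.2%).

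The variance over the mean of thinned UMIs, which is 1 for even sampling, was 14.2 for Ccl4 in uninjured cells and 18.4 in injured cells. It went from 3.30 to 12.8 for Ccl12 and from 2.35 to 14.6 for Ccl5. Ccl6 (1.42 and 2.23) and Ccl9 (1.85 and 1.74) had the lowest ratios. This ratio also depends on the mean, which was 0.41 thinned UMIs for Ccl6 and 7.15 for Ccl4 in injured cells. It therefore does not rank the evenness of genes at different levels. By unthinned UMIs, 50% of injured Ccl6 UMIs lay in 45 cells, against 61 cells for Ccl4. The share of cells with 10 or more thinned UMIs of Ccl4 was 14.4% and 21.5%.

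**Figure D2:**
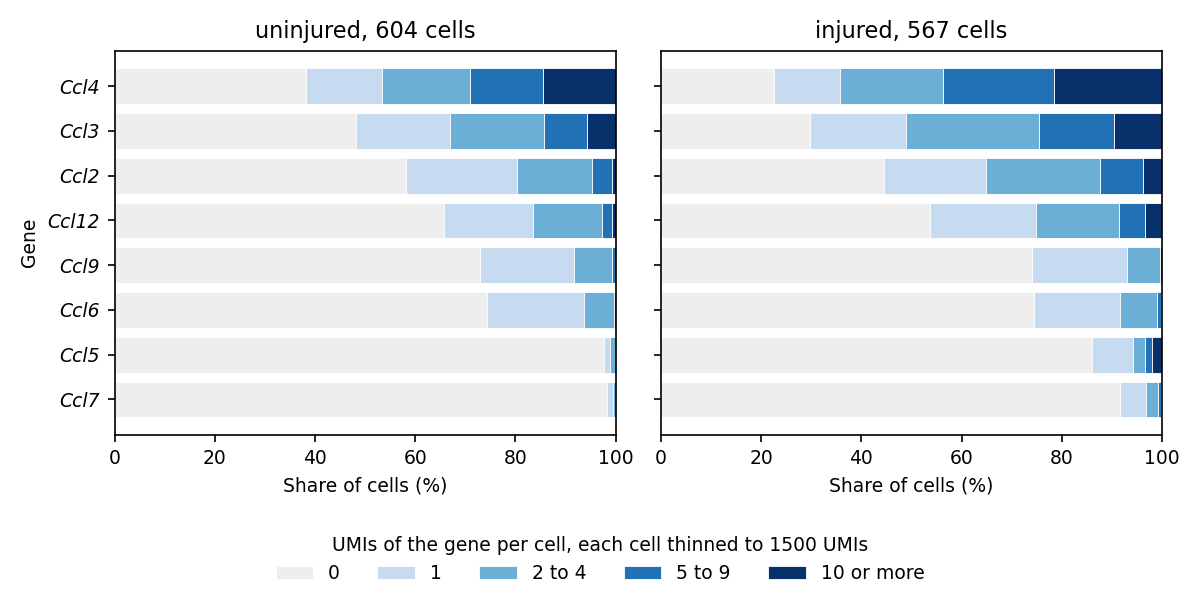
Stacked bars give the share of cells (horizontal axis, percent) with 0, 1, 2 to 4, 5 to 9 or 10 or more UMIs of each gene in the uninjured (left) and injured (right) library, each cell thinned to 1500 UMIs. Ccl4 and Ccl3 have the widest dark ends in both libraries, and Ccl5 and Ccl7 were at 0 in most cells of each.

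Free RNA can give UMIs to cells that do not make a gene. The barcodes with 3 or more endothelial or oligodendrocyte precursor markers were used as a reference: 4 in the uninjured library (median 1737 UMIs, against 3012 in the others) and 7 in the injured library (median 3254, against 4427). A Ccl4 UMI was seen in 2 of the 4 and 2 of the 7, against 70.6% and 90.4% of the other cells, and the levels were 531 and 78.6 CPM. Ccl2 was seen in 2 of the 4 and 2 of the 7, against 54.0% and 74.6%. Ccl3 was seen in 2 and 3 of them, and Ccl12, Ccl7 and Ccl9 in 0 of either. Ccl5 was seen in 0 of 4 and 1 of 7, and Ccl6 in 2 of 4 and 0 of 7. These barcodes also held microglial marker transcripts, at 6112 and 1494 CPM, and so few barcodes set only a loose limit.

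More genes of the family were seen per cell in the injured library. At 1500 UMIs per cell, 3 or more of the 8 were seen in 47.2% of uninjured cells (43.1% to 51.3%) and 71.4% of injured cells (67.5% to 75.1%). Without thinning the shares were 67.2% and 89.4%. No family member was seen in 35 uninjured and 21 injured cells, and 1 injured cell held 7 of them. The most frequent combination was Ccl3 with Ccl4 and no other member in the uninjured library, in 45 cells. In the injured library it was Ccl2 with Ccl3 and Ccl4, in 48 cells, followed by the same 3 with Ccl12, in 47.

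**Figure D3:**
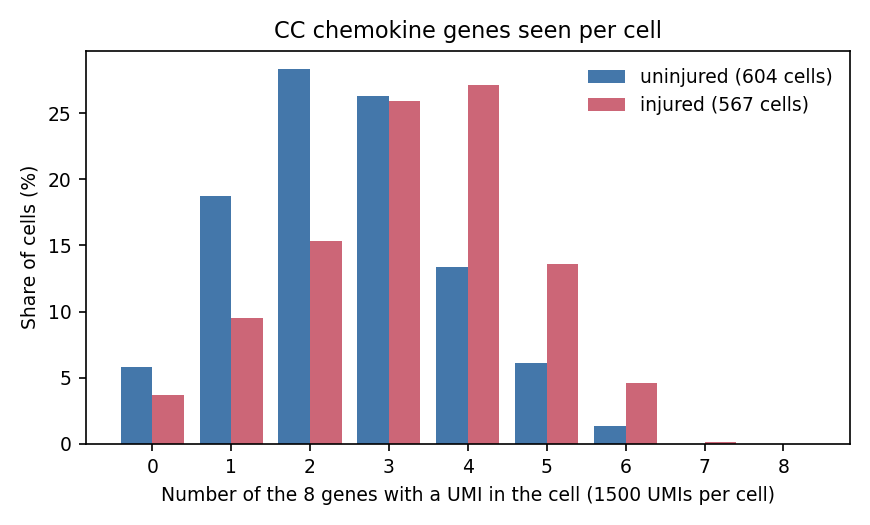
Share of cells (vertical axis, percent) by the number of the 8 genes with a UMI, each cell thinned to 1500 UMIs, in 604 uninjured and 567 injured cells. The tallest bar stands at 2 genes in the uninjured library and at 4 genes in the injured library.

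Ccl3 and Ccl4 shared cells in both libraries. The r and the shares of cells for pairs are means over 20 random thinnings to 1500 UMIs. Counts of clusters come from 1 thinning, and the cells highest in a gene from unthinned UMIs. Pearson's r of log2(1 + UMIs) over cells is given as a description without a test, since cells of a library share its free RNA and batch. For Ccl3 with Ccl4 it was 0.58 in uninjured and 0.68 in injured cells. Ccl3 was seen in 63.7% of uninjured cells with a Ccl4 UMI and 32.5% of those without, a gap of 31.2 points (26.0 to 36.4 over the draws). Among injured cells the shares were 77.5% and 36.0%, a gap of 41.5 points (33.2 to 51.6). Within clusters of cells (described below) that had at least 10 cells on each side, Ccl3 was more frequent beside Ccl4 in 5 of 5 clusters in each library. Of the 10 cells highest in Ccl3 and the 10 highest in Ccl4, 7 were the same cells without injury and 6 after it.

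The values of Ccl2 with the pair were higher in the injured library, a difference that was not tested. Its r with Ccl4 was 0.08 without injury and 0.43 after it, and with Ccl3 it was 0.14 and 0.42. Ccl4 was seen in 66.1% of uninjured cells with a Ccl2 UMI and 60.5% of those without. Among injured cells these shares were 88.0% and 66.5%. Within clusters, Ccl4 was more frequent beside Ccl2 in 5 of 6 uninjured and 4 of 6 injured clusters. The uninjured count includes near ties, at 64.5% against 63.9% and 76.5% against 76.2%.

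The Ccr2 ligands overlapped among themselves to different degrees. Ccl2 with Ccl12 had an r of 0.21 and 0.32, and Ccl12 was seen in 44.3% of uninjured cells with Ccl2 against 29.7% without, and in 52.3% against 32.0% of injured cells. Within clusters it was more frequent beside Ccl2 in 4 of 6 in each library. Ccl2 with Ccl7 had an r of 0.10 and 0.29. After injury Ccl7 was seen in 11.9% of cells with Ccl2 and 4.83% of cells without, and it was more frequent beside Ccl2 in 6 of 6 clusters. Of the 23 unthinned uninjured cells with a Ccl7 UMI, 21 also held Ccl2, or 91.3%, against 52.7% of the other cells. The unthinned injured shares were 82.8% and 72.2%. Unthinned shares also depend on the depth of the cells. Ccl7 with Ccl12 stood at 0.12 and 0.07.

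Ccl12 also went with Ccl4 and Ccl3. Its r with Ccl4 was 0.17 and 0.28, and with Ccl3 0.16 and 0.23. Among injured cells Ccl12 was seen in 46.3% of those with Ccl4 and 32.3% of those without. In all, 1 of 28 uninjured and 4 of 28 injured pairs reached an r of 0.30, and 20 and 15 lay within 0.10 of 0. Ccl6 and Ccl9, neighbours on the chromosome, had an r of 0.01 and 0.12. After injury Ccl9 was seen in 33.0% of cells with Ccl6 and 22.6% of cells without, and the uninjured shares were 30.5% and 28.6%. Within clusters, Ccl9 was more frequent beside Ccl6 in 3 of 5 uninjured and 2 of 4 injured clusters. Ccl5 and Ccl7, which had the largest ratios between libraries, had an r of -0.01 and 0.01. Ccl7 was seen in 6.36% of injured cells with Ccl5 and 9.08% of those without, and the gap ranged from -6.31 to 0.58 points over the draws.

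**Figure D4:**
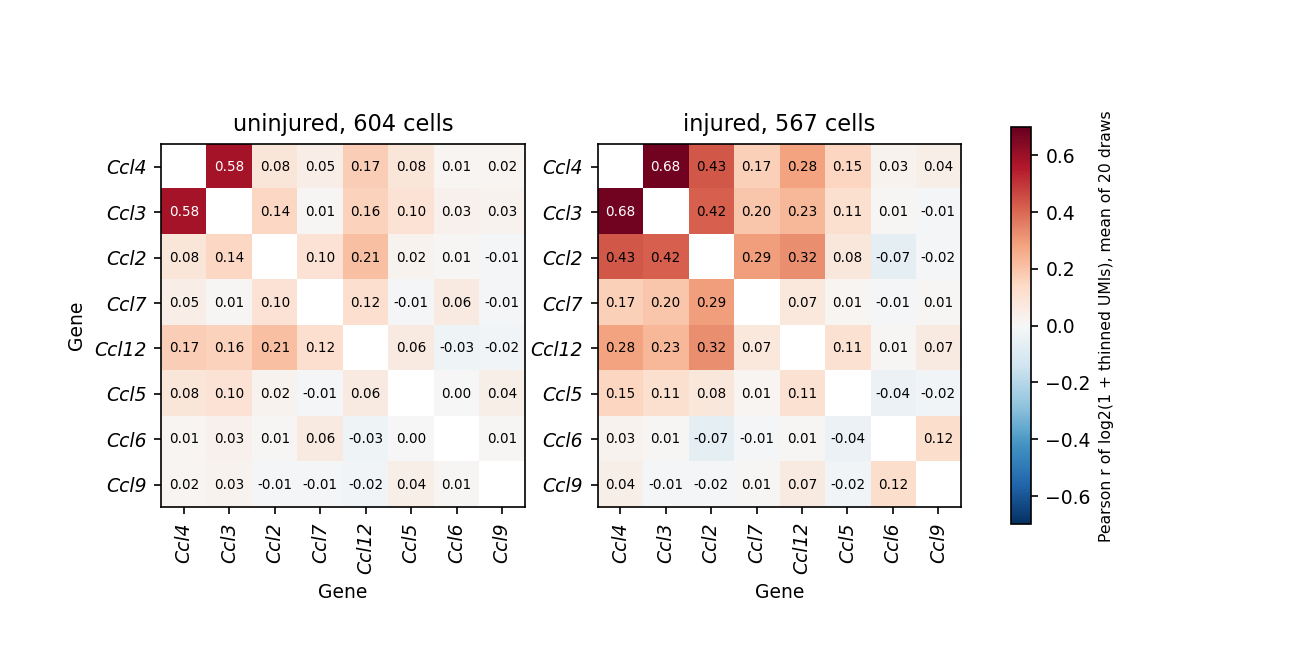
Pearson's r of log2(1 + thinned UMIs) for each pair of genes over 604 uninjured cells (left) and 567 injured cells (right), mean of 20 thinnings, with genes on both axes and r as colour and number. Ccl3 with Ccl4 stands out in both panels, at 0.58 and 0.68, and Ccl2 joins them in the right panel at 0.42 and 0.43.

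The cells were clustered on other genes, with the Ccl, Cxcl, Cx3cl1 and Xcl1 genes left out. The 12 clusters are called by their leading genes. Several clusters came nearly all from 1 library, so a cluster and its library could not be told apart there. Among injured clusters of 20 or more cells, Ccl4, Ccl3, Ccl2, Ccl12 and Ccl5 all had their highest level in 36 cells led by Rsad2 and Ifit3, genes known to be induced by type I interferon. Only 2 uninjured cells fell in that cluster. Its cells held Ccl12 at 7551 CPM (7177 to 7940), against 1015 CPM (926 to 1111) in the 110 cells led by Tnfrsf12a and Il1b. They were 6.24% of injured cells and held 48.1% of all injured Ccl12 UMIs and 25.8% of Ccl5. Of the 10 cells highest in Ccl12, 9 were among them.

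Without this cluster the log2 ratio of Ccl12 was 0.25, that of Ccl2 0.90, that of Ccl3 0.62 and that of Ccl4 0.44. Ccl2 and Ccl12 were then under 2-fold. This alternative was chosen after seeing the data.

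Ccl12 also followed interferon-induced genes from cell to cell in the injured library. Of 3192 genes compared, the most like it were Ifit3, Isg15, an ubiquitin-like protein, and Usp18, which removes it, with an r of 0.49, 0.45 and 0.44 in 1 thinning. Over 20 thinnings these were 0.46, 0.41 and 0.42. The 48 thinned injured cells with an Ifit3 UMI held a mean of 8.50 Ccl12 UMIs, and those without held 1.07. Without the Rsad2 and Ifit3 cluster the means over 20 thinnings were 0.07, 0.11 and 0.10. In the uninjured library they were 0.06, 0.04 and 0.05, with Ifit3 seen in 10 cells.

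Ccl5 had a different spread. It was at 1667 CPM in the Rsad2 and Ifit3 cluster and 863 CPM in the Tnfrsf12a and Il1b cluster. In 84 cells led by Rrad and Il1a it was at 706 CPM. A few cells gave much of these levels. The highest cell and the next held 93 and 88 of 337 UMIs in the Rsad2 and Ifit3 cluster. They held 174 and 123 of 401 in the Tnfrsf12a and Il1b cluster, and 61 and 26 of 212 in the Rrad and Il1a cluster. Among thinned cells Ccl5 was seen in 30.6%, 13.1% and 22.9% of these clusters in that order, against 13.9% of all injured cells. It was at 16.9 CPM, from 3 UMIs, in 26 cells led by 2810417H13Rik and Top2a, genes of dividing cells. Its most like gene was Irf7, with an r of 0.30 in 1 thinning and 0.22 over 20.

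Ccl7 had its highest injured level in another cluster, from few cells. It was at 614 CPM in 21 injured cells led by Hspa1a and Batf, but 1 cell gave 32 of those 44 UMIs and 5 of the 21 held any. It was at 361 CPM in the dividing cells, with 64 UMIs in 8 cells. The Rsad2 and Ifit3 cluster held it at 223 CPM, with 45 UMIs in 11 cells. It was at 218 CPM in 149 cells led by Lpl, Igf1 and Fn1, with 276 UMIs in 34 cells. At 1500 UMIs per cell it was seen in 14.3%, 23.1%, 13.9% and 10.1% of cells of these clusters in that order. The last group, with 25.8% of injured cells and 40.9% of injured UMIs, held 55.8% of injured Ccl7 UMIs. In the Tnfrsf12a and Il1b cluster Ccl7 was at 36.6 CPM, and in the Rrad and Il1a cluster at 40.0 CPM. In the uninjured library 9 cells led by the MHC class II genes H2-Eb1 and H2-Aa held 19 of 54 Ccl7 UMIs, or 35.2%. Of these 19, 16 lay in 1 cell, and no other uninjured cell held more than 7. Without that cluster the log2 ratio of Ccl7 was 3.22, a move that rests mainly on this 1 cell. The border macrophage list stood at 2571 CPM in the cluster's 31 cells of both libraries, and the microglial list at 4587 CPM.

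Ccl3, Ccl4 and Ccl2 were also high in the dividing cells, at 5512, 8583 and 2908 CPM, with intervals that overlapped those of the Rsad2 and Ifit3 cluster (5954, 9055 and 3056 CPM). A few cells gave much of this. At 1500 UMIs per cell Ccl4 was seen in 57.7% of the dividing cells, against 77.4% of all injured cells and 91.7% of the Rsad2 and Ifit3 cluster. Of the 10 injured cells highest in Ccl3, Ccl4 and Ccl2, 4, 3 and 4 were among the 26 dividing cells. They were low in 71 injured cells led by Gm1673 and Lgals3, at 575, 621 and 230 CPM, and in the 32 uninjured cells of that cluster, at 382, 254 and 54.5 CPM. In the 22 injured cells led by H2-Eb1 and H2-Aa they were at 367, 592 and 423 CPM.

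The 4 clusters with at least 20 cells in each library allowed a side-by-side view. Ccl5 was higher in the injured cells of all 4: 139 against 706 CPM in the Rrad and Il1a cluster, 51.6 against 109 CPM in the Kdm6b and Bmp2k cluster, 7.38 against 69.8 CPM in the Hspa1a and Batf cluster, and 0 UMIs (up to 67.1 CPM) against 345 CPM in the Gm1673 and Lgals3 cluster. The intervals overlapped in the second and the third of these. Ccl4 was higher in the injured cells of 3 of the 4 and lower in 1. It went from 3758 to 4271 CPM in the Kdm6b and Bmp2k cluster, where the intervals overlapped, from 4830 to 7599 CPM in the Rrad and Il1a cluster and from 254 to 621 CPM in the Gm1673 and Lgals3 cluster. In the Hspa1a and Batf cluster it went from 4426 to 2554 CPM. Ccl3 went down in that cluster, from 1938 to 1074 CPM, and in the Kdm6b and Bmp2k cluster, from 2122 to 1601 CPM. It went up from 2009 to 2788 CPM in the Rrad and Il1a cluster. In the Gm1673 and Lgals3 cluster its 382 and 575 CPM had overlapping intervals. Ccl12 went from 284 to 814 CPM in the Kdm6b and Bmp2k cluster. In the clusters led by Rrad, Hspa1a and Gm1673 its intervals overlapped, at 693 and 696, 738 and 712, and 200 and 286 CPM.

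Ccl9 was near its uninjured level in the injured cells of the Kdm6b and Bmp2k cluster, at 310 against 308 CPM. In the Rrad and Il1a cluster it went from 201 to 313 CPM and in the Hspa1a and Batf cluster from 262 to 335 CPM, with overlapping intervals in both. Its lowest injured values were 135 CPM in the dividing cells and 140 CPM in the Lpl, Igf1 and Fn1 cluster, which is also the deepest, with a median of 8360 UMIs per cell. The Gm1673 and Lgals3 cluster held it at 564 CPM without injury and 207 CPM after it. Ccl6 stayed between 145 and 377 CPM over the injured clusters drawn in the map of levels by cluster.

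**Figure D5:**
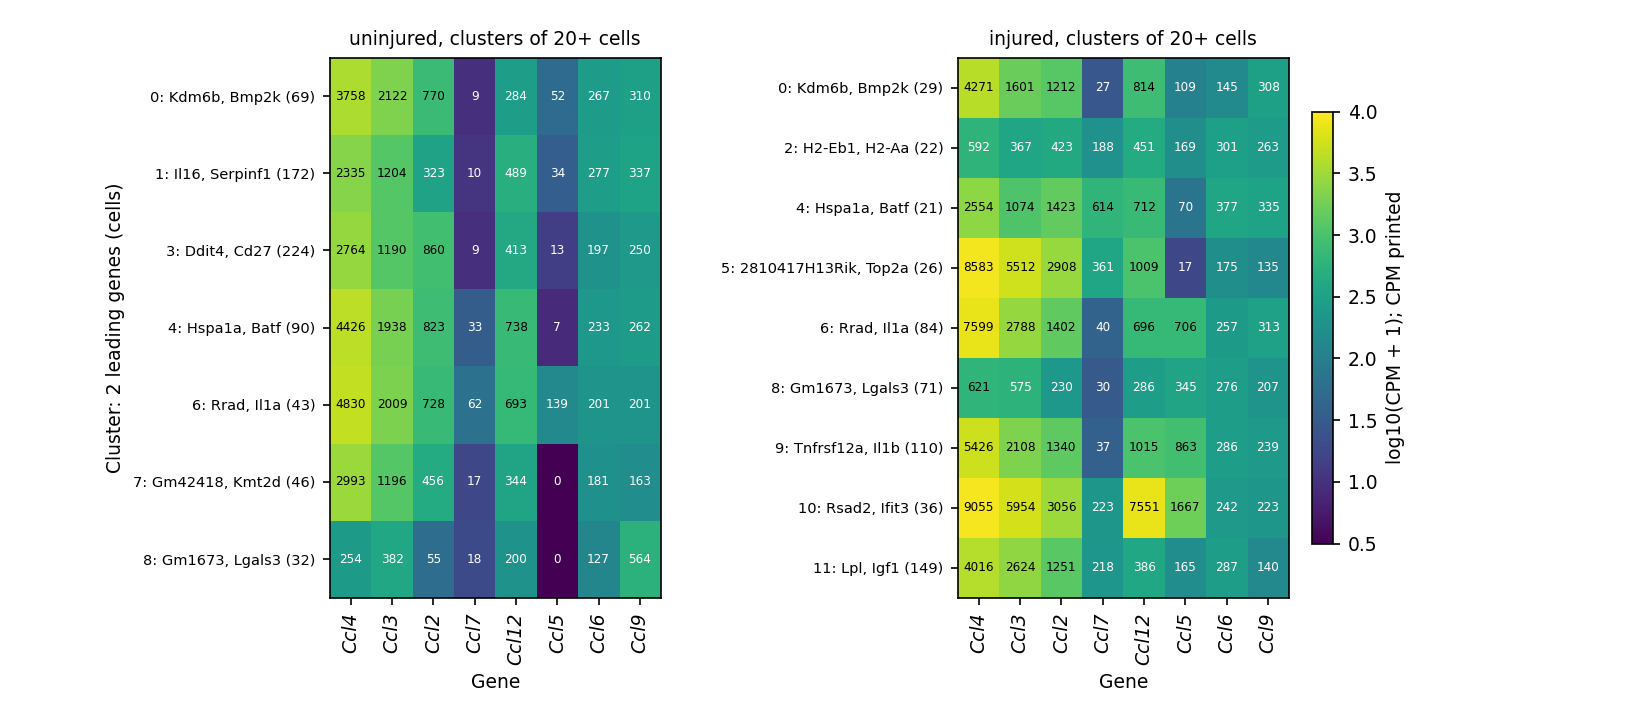
Level of each gene in each cluster of 20 or more cells, uninjured left and injured right, as log10(CPM + 1) in colour with the CPM printed; rows give the cluster, 2 leading genes and the number of cells. The Rsad2 and Ifit3 row stands out for Ccl12 at 7551 CPM, and the Gm1673 and Lgals3 rows are low for Ccl4, at 254 and 621 CPM.

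The other genes most like a member, by the same measure at an r of 0.30 or more in 1 thinning, were counted for each member and up to 3 are named. In injured cells 14 genes reached it for Ccl4, 16 for Ccl12, 5 for Ccl3, 2 for Ccl2 and 1 for Ccl5. Ccl3 was most like Ccl4, Ccl2 and the neutrophil attractant Cxcl2 (0.36) in the injured library. Ccl4 was most like Ccl3, Ccl2 and Junb, an AP-1 subunit (0.40). In the uninjured library only the pair Ccl3 and Ccl4 reached 0.30. No gene reached it for Ccl6, Ccl7 or Ccl9 in either library.

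Some receptors were sparse next to the ligands. Ccrl2, an atypical receptor that does not signal like the others, had 525 and 604 UMIs, a log2 ratio of -0.36 (-0.53 to -0.19). It was seen in 22.7% and 21.5% of thinned cells. Ccr1, a receptor of Ccl6 and Ccl9 among others, had 29 UMIs in each library. Ccr2, the receptor of Ccl2, Ccl7 and Ccl12, had 9 UMIs without injury and 13 after it. Of these, 6 and 13 lay in the small cluster led by H2-Eb1 and H2-Aa. The scavenging receptor Ackr2 had 0 UMIs in both. Of 13 other CC ligands, 3 had no single row of their symbol, 5 had no UMI and 2 were measured. Ccl24, an eosinophil attractant, had 20 and 2 UMIs, and Ccl25 had 13 and 23.

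Genes of the signalling that is known to drive or limit chemokine transcripts were read from lists chosen with earlier results of these data known. Of 21 measured NF-kappa-B factors and targets, 3 stood 2-fold or more above the uninjured level and 0 below it, against the 7.22% and 11.5% of all measured genes, and the median log2 ratio was 0.08. They were Il1b (1.52, 1.34 to 1.71), Sod2 (1.23) and Bcl2a1b (1.21), and Nfkbiz was at 0.91. Other genes of the list were lower by less than 2-fold, among them Birc3 (-0.89), Rela (-0.77) and Nfkbia (-0.61). Of 18 sensors and adaptors, 1 was higher, the bacterial lipoprotein receptor Tlr2 (1.10), and 1 lower, the interferon gamma receptor chain Ifngr1 (-1.27), with a median of -0.08, so that each direction held no larger a share than among all measured genes. Of 8 factors that bind AU-rich mRNA ends, 1 was lower, Zfp36 (-1.14), which speeds the decay of such messages, and the median was -0.25. That 1 of 8 is near the 11.5% of all measured genes. With TMM or DESeq2 size factors Zfp36 was under 2-fold.

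Of 17 type I interferon response genes, 15 passed 2-fold upward and 0 downward, against 7.22% and 11.5% of all measured genes, and the median log2 ratio was 3.28. Rsad2 had 4 and 273 UMIs, a log2 ratio of 5.53 (4.16 to 7.41). Zbp1 (3.85), Ifit1 (3.80) and Ifi27l2a (3.61) followed it, and Stat2 was at -0.08. Over injured cells, r with the summed list was 0.41 for Ccl12, 0.19 for Ccl5 and at most 0.15 for the other 6 members.

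Early response genes are known to be induced by cell dissociation. Of 21, 10 stood 2-fold or more below the uninjured level, against 11.5% of all measured genes, and 0 above it, against 7.22%. Their median log2 ratio was -0.97. With TMM or DESeq2 size factors 6 were lower. Jun, an AP-1 subunit, had 3921 and 1399 UMIs, a log2 ratio of -2.05 (-2.14 to -1.96). The heat shock gene Hspa1a was at -1.74, the cytokine signalling inhibitor Socs3 at -1.62 and the phosphatase Dusp1 at -1.50. From cell to cell, r with the summed list was 0.22 and 0.47 for Ccl4, 0.25 and 0.30 for Ccl2, and 0.15 and 0.30 for Ccl3. For NF-kappa-B genes it was 0.32 and 0.51 for Ccl4. For Ccl6, Ccl7 and Ccl9 it was between -0.10 and 0.04 for both lists in both libraries. The part of dissociation in the level of Ccl3, Ccl4 and Ccl2 was not tested.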

How the data were processed

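Single cells were sorted for tdTomato, with scatter gates against debris and doublets, and made into 10x Genomics 3′ libraries with version 2 chemistry, per the labels' protocols. No doublet caller was run here. The authors deposited whole-number UMI counts per gene and cell barcode. The submitters' processing notes name Cell Ranger 2.0.1, STAR and Seurat 2.1.0, with mm10 and GRCm38.p5 as builds. Of 2500 cells sorted for each library, 705 and 580 were recovered per the labels, and the files held as many barcodes. Whether reads were split between similar paralogs is not given in the sources used here.

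Barcodes were kept where 200 or more genes were seen and mitochondrial UMIs did not pass 10%, which left out 10 uninjured and 3 injured barcodes. Counts were summed per library and given as CPM with exact Poisson intervals. Ratios had exact conditional binomial intervals and shares Clopper-Pearson intervals, all at 95%. They cover counting error alone. Lists were counted at 2-fold over genes with at least 20 UMIs. Clusters came from scanpy 1.11.5 (2000 variable genes, 20 principal components, 15 neighbours, Leiden resolution 1). The Ccl, Cxcl, Cx3cl1 and Xcl1 genes and the sex-linked and mitochondrial genes were left out of the clustering. Leading genes have the highest ratio of CPM in a cluster over other cells, with 10 CPM added, among genes seen in 25% of its cells. The ratio intervals and the thinning were tested on simulated data.

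The members and lists were chosen with earlier results of these data known. Genes were named by rule: the 8 members, Ccr1, Ccr2, Ccrl2 and Ackr2, up to 4 genes per list with the largest log2 ratio and 50 or more UMIs in a library, and up to 3 most like genes at an r of 0.30 or more, among genes seen in 5% of cells. Ccl24, Ccl25, Stat2, Birc3, Rela and Nfkbia were named after their values were seen. Some genes of the lists are not reported here. Alternatives were TMM (edgeR 4.0.16) and DESeq2 1.42.0 size factors, per-cell means, thinning depths, cell filters and clusters left out. Both tools were used for scaling only.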

Additional observations from a re-analysis of the deposited data

How the results depend on the processing

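No replicate could be left out, and no test was possible, with 1 library per condition. No paired analysis was possible because each condition had 1 library. Of 88 alternative log2 ratios of the 8 genes, 87 kept their direction and 62 lay within the counting interval. With TMM factors the ratios were 1.18 for Ccl2, 0.91 for Ccl3, 0.69 for Ccl4 and 1.24 for Ccl12, and with DESeq2 size factors 1.19, 0.92, 0.70 and 1.24. As means of per-cell CPM they were 0.93 for Ccl2, 0.69 for Ccl4 and -0.30 for Ccl9. With every cell thinned they were 0.67 for Ccl4 and -0.16 for Ccl9. In cells with Y-linked UMIs alone they were 0.30 for Ccl3, 0.27 for Ccl4, 1.96 for Ccl7 and -0.82 for Ccl9, and -0.12 for Ccl6, whose direction turned. The cause was not tested. Without the H2-Eb1 and H2-Aa cluster Ccl7 was at 3.22. Without the Rsad2 and Ifit3 cluster Ccl2 was at 0.90, Ccl3 at 0.62, Ccl4 at 0.44 and Ccl12 at 0.25. Without the Hspa1a and Batf cluster Ccl3 was at 0.85, Ccl4 at 0.65 and Ccl12 at 1.22. These last 2 were chosen after seeing the data.

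The share of cells with 3 or more members followed the depth and the limit used. In the uninjured and injured library it was 33.2% and 58.4% at 1000 UMIs per cell, 67.5% and 84.0% at 2500, 67.2% and 89.4% with no thinning, and 15.6% and 36.3% where a member needed 2 or more UMIs. Each alternative kept the injured share higher. With no minimum of UMIs per gene, 1907 genes passed 2-fold upward and 3232 downward, and with a minimum of 100, 257 and 372. With no minimum, CC receptors had 1 higher and 3 lower and sensors 2 lower. With a minimum of 100, other CC ligands had 0 lower. With TMM or DESeq2 size factors, 0 AU-rich factors and 6 early response genes were lower. Of the pairs, the gap of Ccl9 between uninjured cells with and without Ccl6 turned to -2.11 points where 2 UMIs were needed. The gap of Ccl7 between cells with and without Ccl5 turned to 0.72 points in the uninjured library with no thinning and to 1.18 in the injured library where 2 UMIs were needed. These gaps were near 0, and these alternatives were chosen after seeing the data. Ccl5 and Ccl7 rested on 67 and 54 UMIs in the uninjured library, which limits every statement on their uninjured cells.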
